A study of Mus musculus with 6 samples.

Results

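The genes described here are 10 transcription factors that act in the intestinal epithelium, some of them also in liver. They were measured in fetal liver progenitor cells after transfection of a microRNA mimic. The 10 are the homeobox genes Cdx1, Cdx2 and Isx, the nuclear receptor gene Hnf4g, the zinc finger genes Klf4, Klf5, Gata4, Gata5 and Gata6, and the Ets factor gene Elf3. Each was found by its symbol and had 1 row on the array, so they make 10 of the 30927 genes tested. The members were chosen by name, with the mimic-against-control differences in signal of these same arrays in view, so their differences are given as a description, with their errors and with no p-value.

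The cells were BMEL, an immortalized line of hepatoblasts, which are fetal liver progenitors of hepatocytes and of bile duct cells, derived from the livers of wild-type CD1 mouse embryos at E12.5. Cells received either a miR-337-3p mimic, a synthetic duplex that raises that microRNA (3 arrays), or a negative control mimic (3 arrays), both at 500 ng for 48 h by lipofection. Messenger RNA was read on Affymetrix arrays. The material is a single line in culture, the amount of mimic that reached the cells was not measured here, and nothing in the labels tells if the 3 replicates came from independent cultures, so errors and p-values cover the scatter of these arrays, possibly technical, and no more.

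Cdx2 is the homeobox factor that specifies intestinal identity in the endoderm, and Cdx1 is its close relative. In the adult gut these factors act with the paired nuclear receptors Hnf4a and Hnf4g, with Gata factors that divide the small intestine along its length, and with Klf4 and Klf5, which mark differentiated cells and dividing crypt cells. The liver and the intestine both arise from endoderm and share Hnf4a and Gata factors, while Cdx2 and Isx are not typical hepatocyte genes.

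The mature microRNA that was mimicked is shown because it is the agent compared in every value below. Its seed, bases 2 to 8, by which a microRNA chiefly pairs with its targets, is in capitals, and the sequence is RefSeq's for GRCm38.p6, at chr12:109585850-109585871 on the + strand.
miR-337-3p: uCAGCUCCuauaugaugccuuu
Pairing of the seed with messenger RNAs of the 10 genes was not analysed here.

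RefSeq promoter windows were matched for 5 of the 10 genes, Cdx2, Isx, Klf4, Gata5 and Elf3. The 250 bases before the start are printed for the 4 of these that passed the threshold given below, since they were lower together in mimic cells.
Cdx2 (chr5:147307250-147307499, - strand): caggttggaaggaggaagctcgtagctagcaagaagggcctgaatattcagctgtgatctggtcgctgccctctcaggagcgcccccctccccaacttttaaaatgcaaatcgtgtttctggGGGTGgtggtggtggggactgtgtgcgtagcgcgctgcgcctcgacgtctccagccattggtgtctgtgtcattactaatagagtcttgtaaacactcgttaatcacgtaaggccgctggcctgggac
Isx (chr8:74872924-74873173, + strand): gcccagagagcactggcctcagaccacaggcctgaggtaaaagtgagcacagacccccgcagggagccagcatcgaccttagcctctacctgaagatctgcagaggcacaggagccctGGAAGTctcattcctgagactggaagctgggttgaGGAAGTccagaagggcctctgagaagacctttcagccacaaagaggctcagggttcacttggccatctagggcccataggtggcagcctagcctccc
Klf4 (chr4:55532476-55532725, - strand): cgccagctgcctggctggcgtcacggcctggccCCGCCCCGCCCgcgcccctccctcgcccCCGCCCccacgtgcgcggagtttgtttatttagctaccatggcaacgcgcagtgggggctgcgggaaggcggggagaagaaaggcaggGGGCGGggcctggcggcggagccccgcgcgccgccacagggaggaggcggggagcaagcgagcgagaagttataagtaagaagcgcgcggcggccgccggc
Gata5 (chr2:180334680-180334929, - strand): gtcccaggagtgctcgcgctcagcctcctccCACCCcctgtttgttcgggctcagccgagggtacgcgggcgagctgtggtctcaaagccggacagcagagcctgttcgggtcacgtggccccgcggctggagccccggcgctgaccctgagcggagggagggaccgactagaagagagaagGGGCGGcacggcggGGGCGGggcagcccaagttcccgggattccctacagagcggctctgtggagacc
Capitals mark matches, on either strand, to short motifs of the same factor families: TTTATG for Cdx factors, AGATAA for Gata factors, CAAAGTCC for Hnf4 factors, GGGCGG for Klf and Sp factors, CACCC for Klf factors and GGAAGT for Ets factors. GGGCGG was found 4 times before Klf4, where 2 matches overlap each other, and 2 times before Gata5, and 32.7% of 32851 mouse promoter windows of this length hold it. CACCC was found 1 time before Cdx2, 1 time before Gata5 and 2 times before Elf3, against a share of 52% of windows. GGAAGT was found 2 times before Isx, against 19.7% of windows. The Cdx, Gata and Hnf4 motifs were not found in the 5 windows, against shares of 10.8%, 9.99% and 1.2% of all windows. GC content was 74% before Klf4, 70% before Gata5, 58.8% before Isx, 57.2% before Elf3 and 55.2% before Cdx2, against a median of 52.4% over all windows. These matches are letters in a window and say nothing of whether a factor binds there.

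All 10 factors had a lower mean in miR-337-3p mimic cells, as did 46.1% of all genes tested. The largest difference was in Hnf4g (6.71-fold lower). Klf4 (3.46-fold lower), Elf3 (3.24-fold), Cdx2 (2.87-fold) and Isx (2.73-fold) have no settled order, since without mimic replicate 1 their log2 differences were -1.38, -0.99, -1.44 and -1.21. Gata4 and Cdx1 differed by less than their error. For 7 of the 10 the 3 mimic arrays lay wholly below the 3 control arrays, against 8.33% of all genes. At an adjusted p under 0.05 in limma over all genes, 5 were lower (Hnf4g, Cdx2, Klf4, Gata5 and Isx) and 0 were higher, against 1.68% of all genes lower and 1.89% higher. Nothing is read from these counts, since the contrast was known when the list was drawn up. In bulk RNA, fewer cells with a transcript and less of it per cell cannot be told apart. The median difference over the 10 was -1.10, against 0.02 over all genes.

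**Figure D1:**
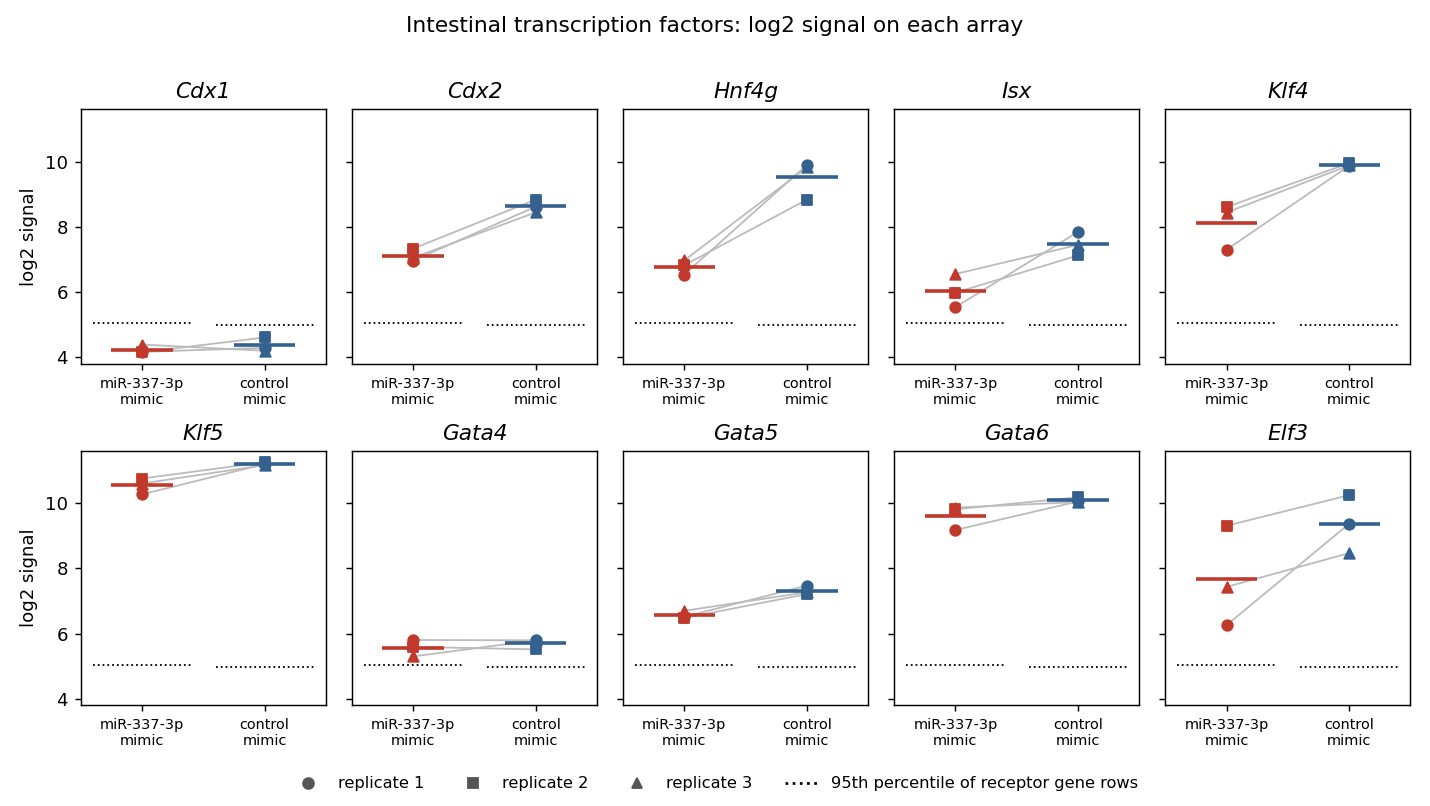
Log2 signal of each factor (y axis) on the 3 miR-337-3p mimic arrays (red, left) and the 3 control mimic arrays (blue, right). Marker shapes give replicate numbers, thin lines join equal numbers, thick bars are group means, and dotted lines mark the highest 95th percentile of receptor gene rows on any array of the group. Only Cdx1 lies below the dotted lines, and the groups of Cdx1, Gata4 and Elf3 overlap.

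The files used here give no detection call, so rows of olfactory and vomeronasal receptor genes, 1482 in all and taken as silent in these cells, served as a rough background. Their 95th percentile ran from 4.66 to 5.05 on the log2 scale over the 6 arrays. Probe brightness differs between genes, so this is a guide and not a test of expression. By it 9 of the 10 factors were above background on every array, and Cdx1 was above it on none.

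Among the homeobox genes, Cdx2 was clearly lower and Cdx1 could not be judged. Cdx2 (transcript cluster 17455307) had log2 signals of 6.96, 7.33 and 7.05 in mimic cells, against 8.62, 8.84 and 8.45 in control cells. Every mimic array was below every control array by more than 1 log2 unit, and the difference was -1.52 with a standard error (SE) of 0.16. Replicates were tight, with an SD of 0.19 in mimic and 0.20 in control cells (n = 3 each). Isx (17502527), an intestine-specific homeobox factor, had signals of 5.53, 5.98 and 6.55 in mimic cells, against 7.85, 7.12 and 7.45 in control cells. The groups did not overlap, and the gap between the highest mimic and the lowest control array was narrow beside the mean difference of -1.45 (SE 0.27). Cdx1 (17354698) had signals of 4.16, 4.15 and 4.39 in mimic cells, against 4.29, 4.61 and 4.20 in control cells. These overlap, at a difference of -0.13 (SE 0.15), and lie below the receptor gene background on every array. They lie above the median of the receptor gene rows, which ran from 3.14 to 3.18 over the arrays. Whether the low signal of Cdx1 hides a fall was not tested.

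Hnf4g (17395955), the gut-enriched partner of Hnf4a, differed most. Its signals were 6.54, 6.82 and 6.97 in mimic cells, against 9.90, 8.84 and 9.83 in control cells. Control replicate 2 was the lowest control array and still lay well above every mimic array, and the difference was -2.75 (SE 0.27). The paralog Hnf4a, which is shared by liver and gut and was not chosen as a member, averaged 9.69 ± 0.08 in mimic cells and 10.04 ± 0.20 in control cells (SD, n = 3 each). Its difference of -0.35 (SE 0.14) did not pass over all genes (limma, Benjamini-Hochberg adjusted p = 0.271). Whether the differences of these paralogs differ from each other was not tested.

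Klf4 and Klf5 had very even control arrays and lower, more scattered mimic arrays. Klf4 (17425401), which is expressed in differentiated gut epithelium and needed for goblet cells in mouse colon, had signals of 7.30, 8.61 and 8.44 in mimic cells, against 9.87, 9.96 and 9.89 in control cells. Mimic replicate 1 was lowest by more than 1 log2 unit, and the SD was 0.71 in mimic and 0.04 in control cells, at a difference of -1.79 (SE 0.30). Klf5 (17302397), a factor of dividing crypt cells, had signals of 10.27, 10.76 and 10.60 in mimic cells, against 11.20, 11.26 and 11.17 in control cells. The groups were apart with a smaller difference of -0.66 (SE 0.15), or 1.59-fold, and its SD was 0.25 in mimic and 0.05 in control cells.

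The 3 Gata factors, which control endoderm development and the regional identity of the small intestine, differed by unequal amounts. Gata5 (17395629) had signals of 6.51, 6.48 and 6.70 in mimic cells, against 7.47, 7.21 and 7.27 in control cells. The arrays of each group were close and the groups apart, at a difference of -0.76 (SE 0.13), or 1.69-fold. Gata6 (17348400), also a factor of early liver endoderm, had signals of 9.18, 9.81 and 9.86 in mimic cells, against 10.05, 10.18 and 10.04 in control cells. The groups did not overlap, and mimic replicate 1 carried much of the difference of -0.47 (SE 0.19), which was -0.25 without that array. Gata4 (17307609), the factor of the proximal small intestine, had signals of 5.80, 5.59 and 5.30 in mimic cells, against 5.79, 5.52 and 5.79 in control cells. These overlap, not far above background, at a difference of -0.14 (SE 0.16).

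Elf3 (17227266), an epithelial Ets factor that activates Tgfbr2 in the mouse intestine, varied more than any other member. Its signals were 6.26, 9.31 and 7.43 in mimic cells, against 9.37, 10.25 and 8.47 in control cells. The groups overlap, since mimic replicate 2 lay above control replicate 3, and the SD was 1.54 in mimic and 0.89 in control cells, at a difference of -1.70 (SE 0.71). Within each replicate number the mimic array was nevertheless the lower, with differences of -3.11, -0.94 and -1.04 for numbers 1, 2 and 3. Without mimic replicate 1 the difference was -0.99, and without mimic replicate 2 it was -2.52.

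Arrays of equal replicate number were taken as pairs from the values alone, since the labels name no pairing. Set side by side in this way, 8 of the 10 factors were lower in mimic cells in all 3 pairs, as were 18.5% of all genes. The exceptions were Cdx1, higher in pair 3, and Gata4, higher in pairs 1 and 2 by 0.01 and 0.08. The widest drop was in pair 1 for 8 of the 10, and mimic replicate 1 held the lowest mimic value for 7. The share of all genes with either pattern was not computed, so nothing is read from these counts. For Cdx2 the pairs were nearly equal, at -1.66, -1.51 and -1.40, whereas for Isx they were -2.31, -1.14 and -0.90. With the replicate number as a block in limma, 7 factors passed, Elf3 and Klf5 besides the 5 named above, against 3.88% of all genes lower and 4.7% higher in that fit.

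**Figure D2:**
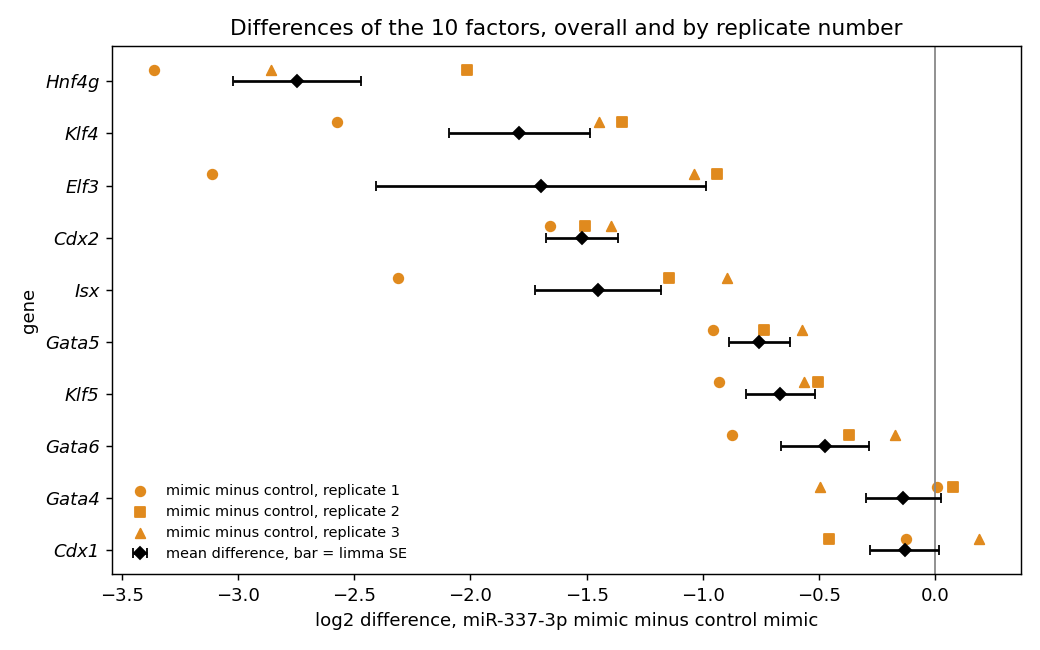
Log2 difference, miR-337-3p mimic minus control mimic (x axis), for each factor (y axis): black diamonds are the mean differences with limma's SE as bars, and orange markers are the differences within replicate numbers 1 to 3. Replicate 1 gives the most negative marker for 8 of the 10 factors, and Cdx1 and Gata4 are the genes with markers above 0.

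Leaving out 1 array at a time kept all 10 differences below 0, as it must for the 7 factors whose groups did not overlap. The differences ran from -1.63 to -1.42 for Cdx2, from -3.09 to -2.56 for Hnf4g and from -2.04 to -1.38 for Klf4. For Isx they ran from -1.72 to -1.21 and for Gata5 from -0.82 to -0.68. The number of factors past the threshold was 3, 3 and 5 without mimic replicates 1, 2 and 3, beside 0.776%, 1.11% and 0.97% of all genes lower in those fits. It was 2, 4 and 2 without control replicates 1, 2 and 3, beside 0.556%, 1.16% and 1.02% of all genes. Without both arrays numbered 1, which have the highest medians of their groups, it was 1 (Klf4), beside 0.165% of all genes. These counts, too, are a description and are read as nothing more. The authors' deposited table gives signed fold changes, mimic over control, from -8.4 for Hnf4g to -1.1 for Cdx1. It gives -3.42 for Elf3, -2.98 for Cdx2, -2.74 for Isx and -2.57 for Klf4, which was 3.46-fold lower here. The group averages in that table are bi-weight averages, a robust kind, and not the plain means used here, so the folds are not like for like.

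Relatives of the 10 factors were taken from lists drawn up with earlier results known. At the same threshold, 1 of 15 other Klf genes rose and 0 fell, against 1.89% and 1.68% of all genes, with a median difference of 0.13. Klf12, a transcriptional repressor, had signals of 5.07, 5.11 and 4.71 in mimic cells, against 4.11, 4.20 and 4.21 in control cells. It rose by 0.79 (SE 0.14, limma adjusted p = 0.0238), from a control level below the receptor gene background, and passed in only 1 of the 6 fits that left out an array, that without mimic replicate 3 (adjusted p up to 0.104). Of 11 other Elf and Ets genes, 1 rose and 0 fell, with a median of 0.15. Etv4, an Ets factor induced by growth factor signalling, averaged 7.13 ± 0.13 in mimic cells and 5.68 ± 0.28 in control cells (SD, n = 3 each), with no overlap, and rose by 1.45 (SE 0.16, adjusted p = 0.00510). With the block 2 Klf genes and 3 Elf and Ets genes rose, against 4.7% of all genes. None of the 6 other Gata genes and Gata cofactors passed in limma, and 0 had an unadjusted p under 0.05, with a median of 0.13, and 1 of them rose with the block. None of 4 relatives of the Cdx genes passed or had an unadjusted p under 0.05, and 3 of them, Cdx4, Pdx1 and Gsx1, were below the receptor gene background on every array.

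Of 27 other endoderm and gut factors, 1 rose and 1 fell in limma, against 1.89% and 1.68% of all genes, with a median of 0.05. Creb3l3, a membrane-bound factor of liver and small intestine that activates lipid genes, had signals of 7.43, 8.10 and 7.71 in mimic cells, against 9.33, 9.47 and 9.39 in control cells. It fell by 1.65 (SE 0.17, limma adjusted p = 0.00429) and passed whichever array was left out. The endoderm factor Foxa2 had a difference of 0.20 (limma adjusted p = 0.691) and Sox9, a factor of bile duct and crypt cells, 0.60 (adjusted p = 0.337). Of this pair, Sox9 alone passed in a fit that left out an array, that without control replicate 2, where its difference was 0.93.

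**Figure D3:**
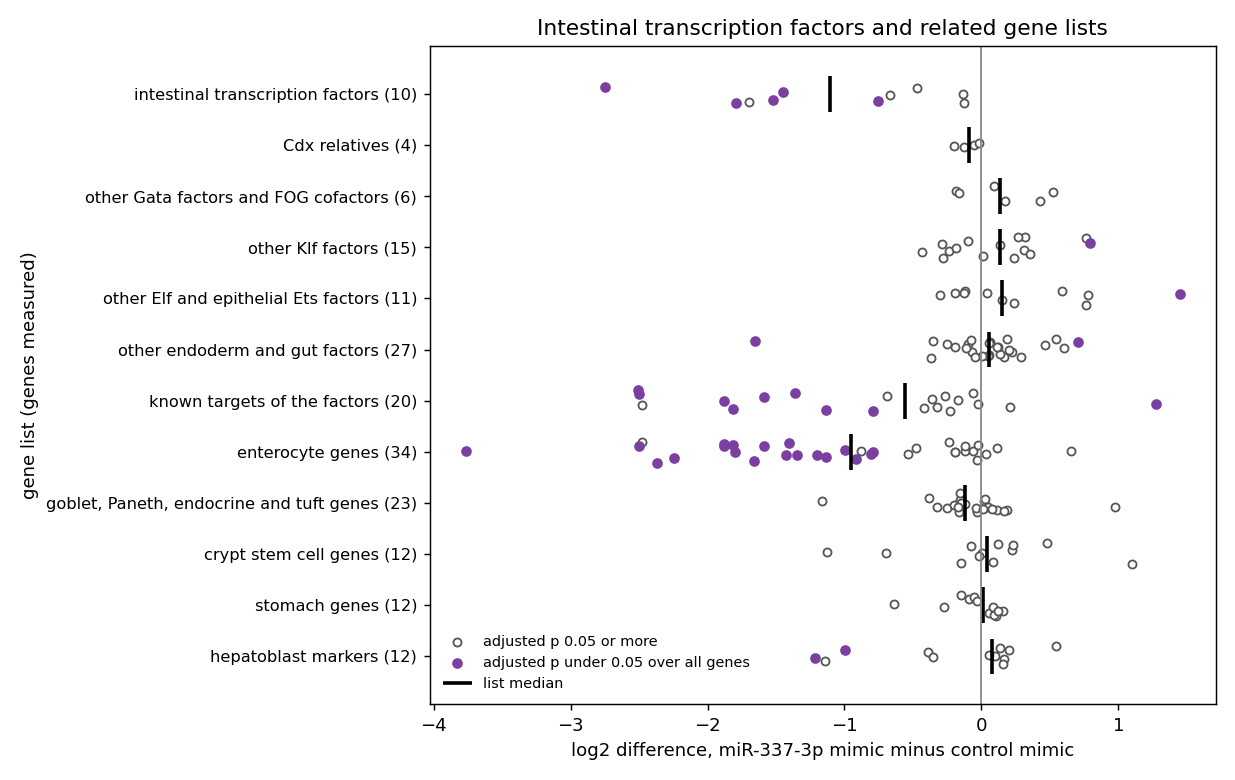
Log2 difference, miR-337-3p mimic minus control mimic (x axis), of each gene (circles) in the 10 factors and 11 related lists (y axis, with genes measured). Filled circles passed an adjusted p under 0.05 over all genes in limma, vertical bars are list medians, and medians of the 10 factors, of their known targets and of enterocyte genes lie furthest below 0.

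Genes known as targets of these factors in the gut, listed with earlier results known, were lower more often than higher. The list mixes genes that the factors activate with genes that they repress, so a fall does not mean the same for each. Among 20 measured there were 8 that fell and 1 that rose in limma, against 1.68% and 1.89% of all genes, with a median of -0.56. Slc10a2, the ileal bile acid uptake transporter that Gata4 keeps low in mouse jejunum, had signals of 4.77, 4.99 and 5.11 in mimic cells, against 8.19, 6.65 and 7.56 in control cells. It fell by 2.51 (SE 0.33, adjusted p = 0.00751) to near background. Intestinal alkaline phosphatase (Alpi) fell by 1.81 (SE 0.27, limma adjusted p = 0.0115), and the fatty acid carrier gene Fabp2 by 1.88 (SE 0.35, adjusted p = 0.0274). Sis, the sucrase-isomaltase gene that Cdx2 activates, had signals of 3.51, 3.83 and 3.93 in mimic cells, against 7.60, 5.18 and 6.01 in control cells. Every mimic array was below background and every control array above it, and Sis fell 5.67-fold (limma adjusted p = 0.0363). Background in the mimic signals can make that fold too small, while control replicate 1, the highest array, makes it larger, and without that array the log2 difference was -1.83. The Cdx2 targets Cdh17, an intestinal cadherin, and Vil1, a brush border actin-bundling protein, fell by 0.79 (SE 0.13, adjusted p = 0.0191) and 1.13 (SE 0.19, adjusted p = 0.0192). The cyclin gene Ccnd1, which Klf5 activates, rose by 1.27 (SE 0.19, adjusted p = 0.0124).

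Other known targets did not pass. Bco1 (Bcmo1 on the array) and Scarb1, which Isx represses in the mouse intestine, had differences of 0.21 (SE 0.17, limma adjusted p = 0.709) and -0.26 (SE 0.13, adjusted p = 0.425). Tgfbr2, the target of Elf3, had -0.17 (SE 0.15, adjusted p = 0.718). Lactase (Lct) and the ileal bile acid carrier gene Fabp6 were below background on all 6 arrays and had differences of -0.02 and -0.06. Of the 9 called targets, Slc10a2 passed whichever array was left out. Alpi and Ccnd1 were lost without control replicate 1 (adjusted p = 0.0590 and 0.0614), Cdh17 without mimic replicate 1 or 3 or control replicate 1 or 2 (up to 0.0878), Vil1 without mimic replicate 3 or control replicate 1 or 3 (up to 0.0868), Fabp2 without mimic replicate 3 or control replicate 1 or 2 (up to 0.113), and Sis without mimic replicate 1, 2 or 3 or control replicate 3 (up to 0.106). The count of 9 was 5 without mimic replicate 1, 3 without mimic replicate 3 and 3 without control replicate 1. Without both arrays numbered 1 it was 0 in limma, with 10 of 20 at an unadjusted p under 0.05, against 11.7% of all genes in that fit.

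The list of genes of enterocytes, the absorptive gut cells, was also drawn up with earlier results known. In limma 19 of 34 fell, 0 rose and 15 did not pass, against 1.68% and 1.89% of all genes, with a median of -0.96. Of the 34, 8 are also in the list of targets. With the block 21 fell, against 3.88% of all genes in that fit. The hormone genes uroguanylin (Guca2b) and guanylin (Guca2a) and their receptor gene Gucy2c differed by -1.66 (SE 0.13, limma adjusted p = 0.00233), -1.80 (SE 0.21, adjusted p = 0.00537) and -1.42 (SE 0.15, adjusted p = 0.00433), and so fell. Guca2b had signals of 6.29, 6.24 and 5.99 in mimic cells, against 7.82, 7.93 and 7.75 in control cells, so that the groups stood well apart. The membrane mucin gene Muc13 fell by 1.88 (SE 0.23, adjusted p = 0.00626) and the epithelial adhesion gene Epcam, which hepatoblasts also express, by 1.00 (SE 0.13, adjusted p = 0.00682). Slc51b, a subunit of the basolateral bile acid exporter, fell by 3.77 (SE 0.47, adjusted p = 0.00663), and by 4.38 without control replicate 2. These 6 passed whichever array was left out, and 9 of the 19 did so in all. The count was 11 without mimic replicate 3, 12 without control replicate 1, and 3 without both arrays numbered 1, where 23 of 34 had an unadjusted p under 0.05, against 11.7% of all genes.

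**Figure D4:**
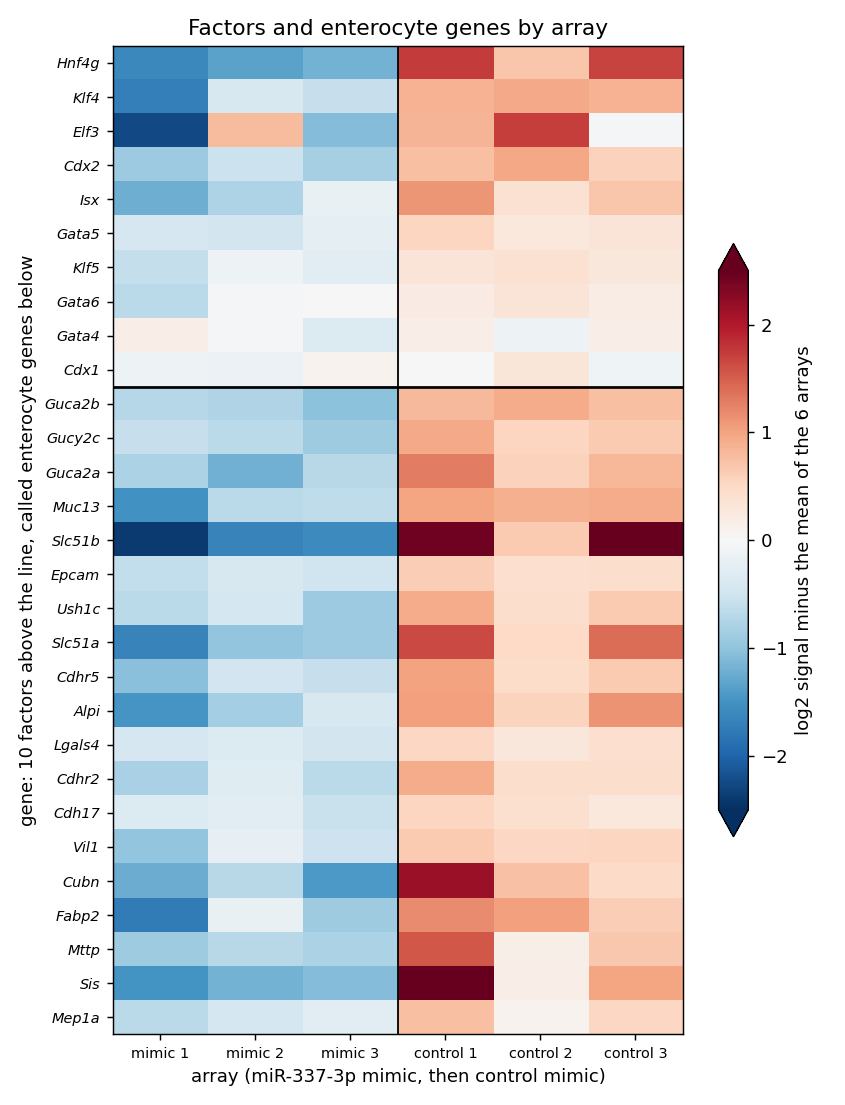
Log2 signal minus the gene's mean over the 6 arrays (colour), by array (x axis, miR-337-3p mimic and then control mimic), for the 10 factors (above the line) and the 19 enterocyte genes that fell (below it). Mimic arrays are mostly blue and control arrays mostly red, Elf3 is red on mimic replicate 2, and the enterocyte genes shown were selected for passing the test.

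For Hnf4g, which differed most, the 5 genes whose log2 signals ran most alike over the 6 arrays were Degs2, Slc51b, Hsd17b13, Ces2a and Mettl7b, with Pearson r from 0.994 to 0.997. They were taken from 601 named genes with a difference of at least 1 log2 unit in either direction, so the gap between the groups sets most of each r. Their own differences ran from -4.45 (Ces2a) to -1.84 (Degs2). No factor had a higher mean in mimic cells, so no such set was drawn for a gene that was higher.

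Markers of the labelled cell type were checked beside these values. Of 12 hepatoblast markers, 11 were above the receptor gene background on every array, and Dlk1, a surface marker of hepatoblasts, was above it on only 2 of 3 mimic and 2 of 3 control arrays. Afp, the fetal serum protein, averaged 6.15 ± 0.30 in mimic and 6.54 ± 0.41 in control cells (SD, n = 3 each), and the serum protein gene Alb 5.39 ± 0.22 in mimic and 6.54 ± 0.78 in control cells. Their differences of -0.39 (limma adjusted p = 0.524) and -1.14 (adjusted p = 0.127) did not pass, though Alb did with the block (adjusted p = 0.0249). Without control replicate 2 they were -0.16 for Afp and -0.72 for Alb. The thyroid hormone carrier gene Ttr fell by 1.22 (SE 0.22, adjusted p = 0.0259), the only call besides Epcam in that list, and passed in only 1 of the 6 fits that left out an array, that without control replicate 3 (adjusted p up to 0.109). Of markers of other cell types, 1 of 9 blood cell genes (Cd68, a lysosomal protein of macrophages that other cells also make) and 1 of 10 mesenchymal genes (Col1a1) rose, by 1.18 (SE 0.23, adjusted p = 0.0320) and 0.59 (SE 0.12, adjusted p = 0.0384). Cd68 was lost without mimic replicate 2 or 3 or control replicate 1 or 3 (up to 0.115), and Col1a1 whichever array was left out (up to 0.118). None of 8 endothelial genes passed or was above background on all arrays of a group. For comparison with all these marker lists, 1.89% of all genes rose and 1.68% fell in limma. The median log2 signal over the 9 blood cell genes ran from 3.44 to 3.97 in mimic and from 3.69 to 3.91 in control cells, and over the 10 mesenchymal genes from 4.75 to 4.84 in mimic and from 4.88 to 4.91 in control cells. The part of other cell types in the differences of the 10 factors was not tested.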

How the data were processed

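RNA of 6 samples was read on Affymetrix arrays, 3 per group, with groups and replicate numbers taken from sample titles. The deposited table holds log2 signals of 41345 transcript clusters on each array. These signals are treated here as normalized before deposit, and array design, software and normalization method stay unknown here, as no source used here states them. The authors' deposited comparison table gives bi-weight group averages as log2 signals, a linear ratio and a signed fold change (a score that skips -1 to 1). By its headers it also gives ANOVA and FDR p-values. By transcript cluster, 34471 of its rows were joined to the signals. Of these, 2003 had no symbol and 15 had a symbol turned into a date or number. The 32453 rows with a usable symbol make 30927 genes, and for 909 genes with several rows the brightest row on average was kept.

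Differences, mimic minus control, came from limma (version 3.58.1, R 4.3.3; lmFit and eBayes, group as the sole term) run on all genes, with Benjamini-Hochberg adjustment over all of them and a threshold of 0.05. The fit was tested on simulated arrays drawn independently of each other. They lacked the likeness between arrays of equal number given below, so that test does not vouch for the calls made here. Members and lists were chosen with earlier results of these data known, and no set test was run. Deviations from group means correlated at 0.431, 0.370 and 0.442 between arrays of equal number (each above 0.1), so numbers were taken to pair the arrays; this rests on the values alone. Named genes are all 10 members, of each other list the called genes with the smallest unadjusted p (up to 6), and Hnf4a, Foxa2, Sox9, Sis, Cdh17, Lct, Vil1, Slc10a2, Fabp6, Scarb1, Bco1, Tgfbr2, Afp, Alb, Epcam and Dlk1; some genes this rule selects are not reported here. Alternatives were the replicate block, leaving out each array, leaving out dim genes, quantile normalization, eBayes with trend and robust options, averaging rows of a gene, the authors' ANOVA p-values, and other background limits. No source used here names the build of the array annotation, so gene coordinates are not printed. Array number limits the precision, and the median SE of a difference was 0.15.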

Additional observations from a re-analysis of the deposited data

How the results depend on the processing

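All 10 factors stayed lower in mimic cells in each of 119 recomputed differences over 12 alternative settings. None of these settings moved a difference by more than 1 replicate SD. The block, the trend and robust options, row averaging and leaving out dim genes cannot change a factor's difference, so those repeats were fixed in advance. Leaving out arrays could not change the sign for the 7 factors whose groups did not overlap. Leaving out 1 array of 3 also cannot move a difference by more than 1 replicate SD, whatever the values. For those fits the limit therefore shows nothing about stability. The difference of Elf3, -1.70, was -0.99 without mimic replicate 1 and -2.52 without mimic replicate 2. The median difference of the 10, -1.10, was -1.45 without dim genes, where Cdx1 is left out, and ran from -1.15 to -0.86 with 1 array left out. The count of called genes, 1103, was 2654 with the replicate block, from 322 to 721 with 1 array left out, 77 without both arrays numbered 1 (chosen after seeing the data), and 4 from the authors' ANOVA p-values. The count of called factors, 5, ran from 2 to 5 with 1 array left out and was 1 without both arrays numbered 1. The count of called genes in the other lists, 29 of 183, ran from 15 to 27 with 1 array left out and was 3 without both arrays numbered 1. Fewer arrays are part of the construction of these fits. Called factors and called genes of the other lists were not counted by the authors' ANOVA p-values, with which only 4 genes of all passed. Genes at background changed sign with 1 array left out, Lct ranging from -0.14 to 0.0764 and Fabp6 from -0.25 to 0.0995. Of named genes outside the 10, the block changed the call of Alb alone, and the trend and robust options that of Col1a1 alone (limma adjusted p = 0.0628). By the 99th percentile of receptor gene rows, 7 factors in place of 9 were above background on all arrays, and 9 with olfactory rows alone.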

Other observations

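Genes of other gut cell types and regions were measured as well, in lists drawn up with earlier results known. Of 23 goblet, Paneth, endocrine and tuft cell genes, 0 passed in limma over all genes and 1 had an unadjusted p under 0.05, against 15.1% of all genes, with a median difference of -0.12, and 1 fell with the block. Of 12 crypt stem cell genes, 0 passed and 4 had an unadjusted p under 0.05, with a median of 0.04, while 1 rose and 2 fell with the block. Of 12 stomach genes, 0 passed and 1 had an unadjusted p under 0.05, with a median of 0.01, and 1 fell with the block. In the fit with the block 3.88% of all genes fell and 4.7% rose. In control cells 9 of the 23, 7 of the 12 and 3 of the 12 lay above the receptor gene background on every array. Of the 34 enterocyte genes 23 did. Whether low signal bears on the counts of these lists was not tested.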
